A study of Drosophila montana and Drosophila virilis with 24 samples.

Results

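The genes Ddc, amd, b and Dat were followed in whole females of Drosophila montana and D. virilis, a pair of related flies, after several kinds of cold. They were taken by name from the probes of a custom Agilent array, and they are 4 of the 218 genes named on it, with 18 of its 925 probe pairs. Each of the 24 arrays was hybridised with RNA from 1 pool of 10 mature females aged 20 days, and each of the 8 groups held 3 such pools. The light phase lasted 22 h and the dark phase 2 h for all flies, and freezing took place 5 to 6 h into the light phase. Control flies of both species stayed at 19°C for 20 days. Cold acclimation was 14 days in those conditions followed by 6 days at 5°C, and cold hardening was 1 h at 0°C. In D. montana alone, further flies were held at -6°C for 16 h, which puts flies into chill coma, a reversible immobility, and were frozen after 15 min or 1 h of recovery. The labels name no strain, mutation or transgene. The recovery groups have no group that was held at -6°C and frozen without recovery, so they differ from the controls by the cold and the recovery together.

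The 4 enzymes belong to the chemistry that turns tyrosine into dopamine and then into the tanned insect cuticle. Tyrosine is made into dopa, and dopa decarboxylase (Ddc) makes dopamine from it, as well as serotonin in neurons. The enzyme of amd is a relative of Ddc that takes the same substrate to an aldehyde used in flexible cuticle. The enzyme of b (black) makes beta-alanine from aspartate, which ebony joins to dopamine in the formation of light cuticle and in the recycling of transmitters. Dat, dopamine N-acetyltransferase, acetylates dopamine, serotonin and related amines, which serves colourless cuticle and the removal of amines. These roles are known from D. melanogaster. The array spells its probes Dat, and only the capitals separate this name from DAT, the dopamine transporter, so the assignment rests on that spelling.

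A level below is the log2 processed spot signal minus the 75th percentile of the same array, averaged over the probes of a gene, so that 1 unit is a doubling. The zero is set by all probes of the array, and a probe can match the species unequally. Differences in level between genes, or between the 2 species for the same gene, were therefore not read as differences in RNA. Signals of a probe in the 2 species were set side by side only to describe probes and arrays. Changes are log2 differences from the species' own controls with their standard errors (SE) from limma, and a gene passed where the p-value adjusted by Benjamini-Hochberg over all genes of the comparison was under 0.05. The pools are of whole bodies, so fewer cells of a type and less RNA per cell cannot be told apart. All 18 brighter probes of the 4 genes were well above background in at least 1 full group of each species. Of every pair the probe with the name of the forward orientation was the brighter one. The share of spots clearly brighter than background was 72.25% to 83.09% per array, and no spot was saturated. The 75th percentile ran from 412.9 to 882.8 signal units, and from 412.9 to 678.2 on the recovery arrays.

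One array stood apart from its group. On 16 probes of 11 other genes that were over 2 log2 units brighter in D. virilis controls than in D. montana controls, D. montana acclimation replicate 1 lay a median of 32.6% of the way from the D. montana to the D. virilis controls on the linear scale, with probes from 17% to 63.9%. The medians of the other 14 D. montana arrays lay between -2.85% and 1.86%. On the 3 amd probes, which also were brighter in D. virilis, this array lay 32% to 42.8% of the way. On 53 probes of 34 genes that were brighter in D. montana, the separation was less clean: the median of this array lay 45.5% of the way and those of the other 14 between -27.2% and 32.3%. On 1 of the amd probes the third 1-h recovery array reached 41.6%, while its median over the 16 other probes was 1.58%. The cause was not tested, and the fitted changes of the 4 genes in D. montana acclimation are given with and without this array.

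**Figure D1:**
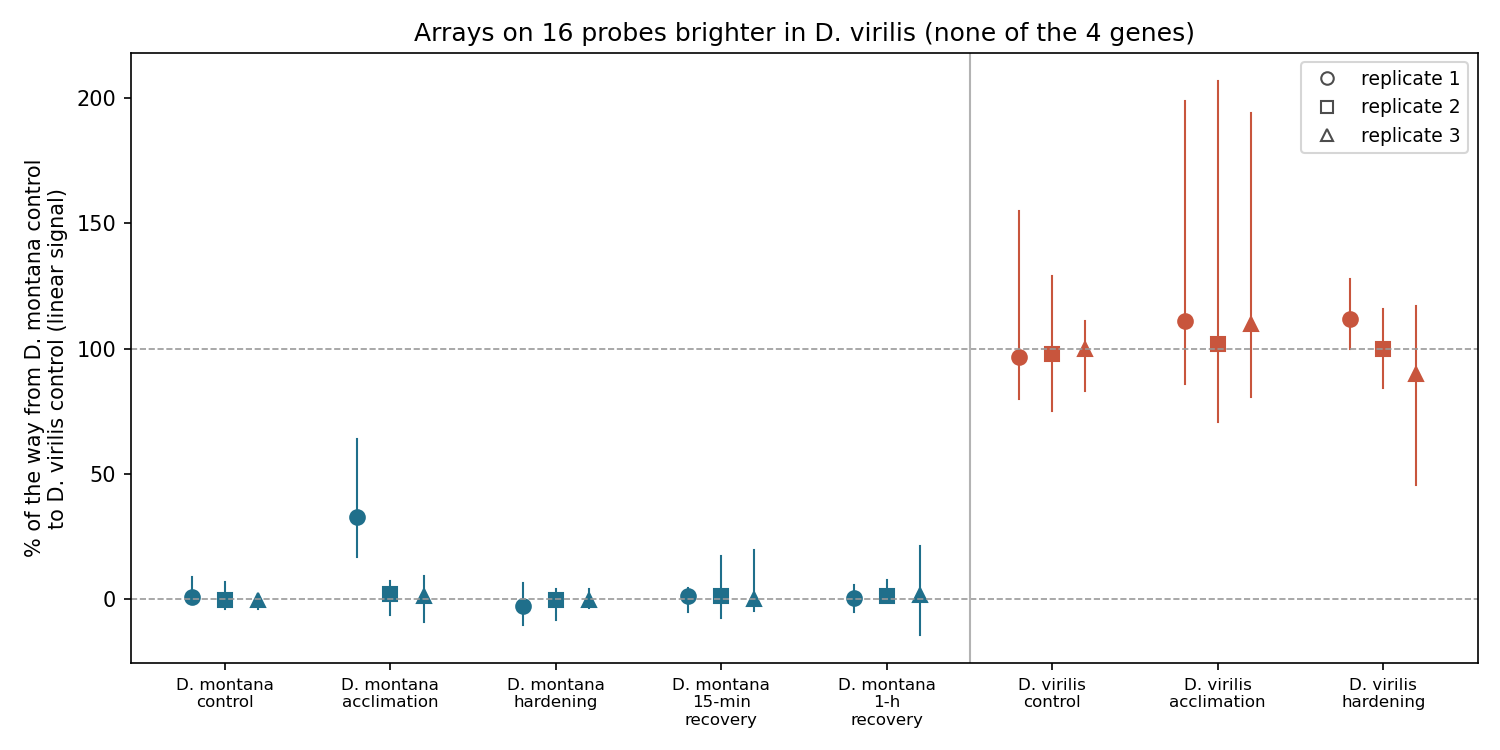
Position of each array between the species, as the percentage of the way from the mean D. montana control (0) to the mean D. virilis control (100) on the linear signal, over 16 probes of 11 genes other than the 4 enzymes. Points are medians over probes, lines run from the lowest to the highest probe, and shapes are replicates; D. montana acclimation replicate 1 has its median at 32.6%, while the other D. montana medians lie between -2.85% and 1.86%. Probes brighter in D. montana are not plotted.

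After 6 days at 5°C all 4 genes changed in D. virilis, and Ddc fell in D. montana. In D. virilis b rose 6.5-fold and Ddc rose slightly, while amd and Dat fell. In D. montana amd rose with all arrays but did not pass without the one that stood apart, and neither b nor Dat passed. Of the 4 enzymes 2 passed in D. montana, where 26.8% of all genes did (57 of 213), and 4 passed in D. virilis, where 39.3% did (83 of 211). The median change over the 4 genes was 0.27 in D. montana and -0.43 in D. virilis, beside 0.00 and -0.06 over all genes tested. In each species the 4 changes had both signs, so these medians show no common shift. The middle genes in D. montana were amd and Dat, at 0.91 and -0.37. Without the array that stood apart they were at 0.43 and -0.26. With another background correction, normexp on the median signals, the calls of b and amd in D. virilis held, while those of Ddc and Dat in D. virilis, of Ddc and amd in D. montana and of the 3 species differences given below did not (adjusted p from 0.0527 to 0.993). Feature Extraction marked D. virilis acclimation replicate 2 for evaluation, and all 4 genes passed without it (adjusted p from 1.43e-04 to 0.0303).

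**Figure D2:**
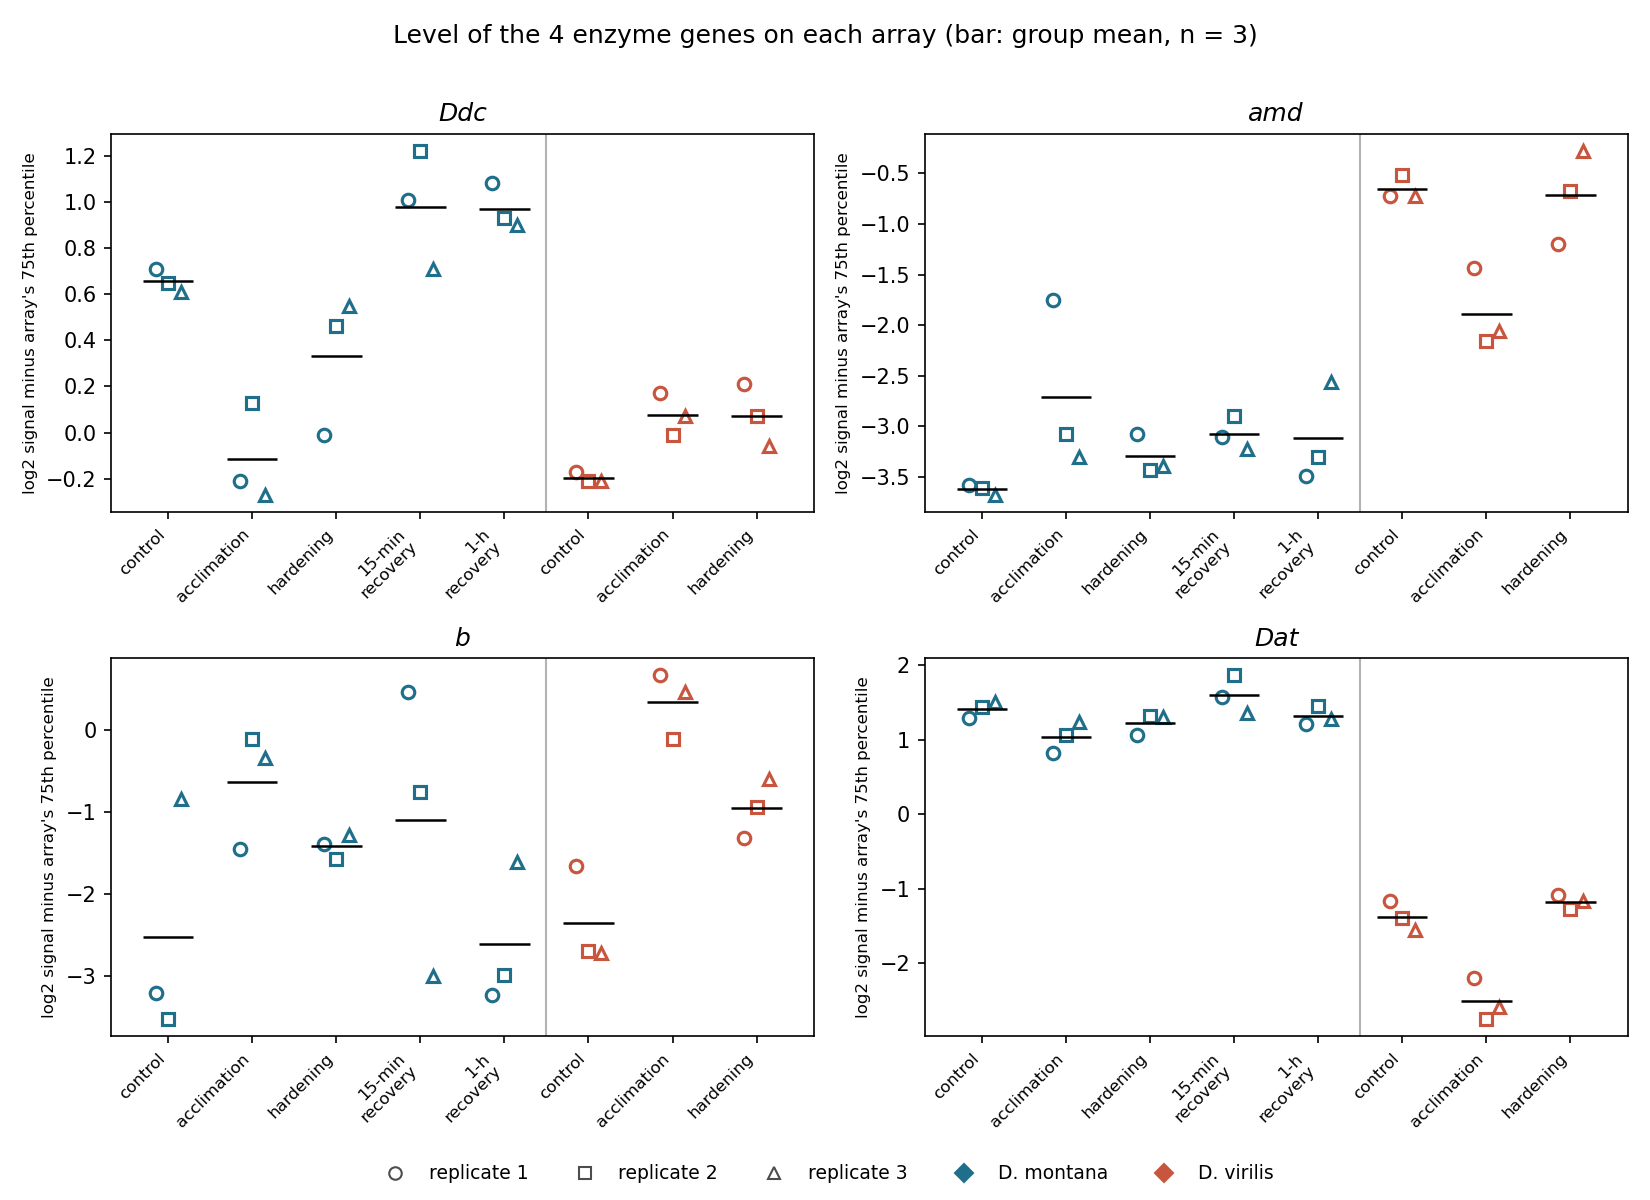
Level of Ddc, amd, b and Dat on each of the 24 arrays (y axis: log2 signal minus the array's 75th percentile; each panel has its own scale), by group and species. Shapes are replicate pools and bars are group means of 3; b ranges from -3.52 to -0.84 among D. montana controls, and the D. virilis acclimation arrays of amd and Dat all lie below their controls.

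Ddc, the enzyme that makes dopamine, went in opposite directions in the 2 species. The D. montana controls were at 0.71, 0.65 and 0.61, and the acclimated pools were at -0.21, 0.13 and -0.27. All acclimated pools lay below all controls, with a gap several times the spread of the controls. The change was -0.77 ± 0.16 (1.7-fold lower, adjusted p = 0.0023, n = 3 pools per group), and it was -0.72 ± 0.18 without acclimation replicate 1 (adjusted p = 0.0109). Within slides, each of which carried 1 array of every group, it was -0.91, -0.48 and -0.92. In D. virilis the controls were at -0.17, -0.21 and -0.21, and the acclimated pools were at 0.17, -0.01 and 0.07. Here the acclimated pools lay above the controls, by a smaller margin. The rise was 0.28 ± 0.09 (1.21-fold, adjusted p = 0.0305) and the slides gave 0.34, 0.20 and 0.29. It no longer passed without D. virilis control replicate 2 or 3 or acclimation replicate 1 or 3, where the adjusted p ranged from 0.0767 to 0.0969. The responses of the species differed by -1.04 ± 0.20 (D. montana change minus D. virilis change, adjusted p = 0.00104), in a comparison in which 12.4% of 209 genes passed. Without D. montana acclimation replicate 1 the difference was -1.0 (adjusted p = 0.00307).

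The 5 Ddc probes lie on 2 fragments of the gene. In D. montana acclimation 4 of them changed by -0.97 to -0.80, and 1 probe of the second fragment changed by -0.36. In D. virilis all 5 lay between 0.23 and 0.30. The probe with the smaller change in D. montana is also the one whose opposite-orientation partner was well above background on all 24 arrays, only 1.15 log2 units dimmer on average. For the other Ddc pairs the gap reached up to 6.81 units.

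The amd gene, the relative of Ddc, fell in D. virilis. Controls of that species were at -0.72, -0.52 and -0.72, and the acclimated pools were at -1.44, -2.16 and -2.06. All acclimated pools lay below all controls. The fall was -1.23 ± 0.23 (2.35-fold, adjusted p = 0.00167), and its 3 probes, on 1 fragment, gave -1.27, -1.23 and -1.20. In D. montana the controls were at -3.58, -3.61 and -3.68, and the acclimated pools were at -1.75, -3.08 and -3.31. The highest value is that of the array that stood apart, and the other 2 pools also lay above the controls. With all 3 pools the change was 0.91 ± 0.31 (adjusted p = 0.0409). Without acclimation replicate 1 it was 0.43 ± 0.22 (adjusted p = 0.185), and without 1 or another control it did not pass either (adjusted p from 0.0823 to 0.0937). The amd probe on which the species differed most was at -1.49 on acclimation replicate 1 and at -4.14 and -4.38 on the other acclimation arrays. It was at -4.80 to -4.66 on the controls and at -0.23 to -0.02 on the D. virilis controls. The cause of the high value on acclimation replicate 1 was not tested. The responses of the species differed by 2.14 ± 0.43 (adjusted p = 0.0016), and by 1.66 ± 0.33 without that array (adjusted p = 0.00198). On the 3 slides the difference was 2.55, 2.24 and 1.63.

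The b gene, which supplies beta-alanine, rose strongly in D. virilis. The controls were at -1.65, -2.69 and -2.72, and the acclimated pools were at 0.67, -0.10 and 0.47. The lowest acclimated pool was above the highest control by more than the range within either group. The rise was 2.70 ± 0.30 (6.5-fold, 95% interval 2.05 to 3.35, adjusted p = 7.34e-05), the seventh lowest p of 211 genes. All 7 probes, on 2 fragments, changed by 2.65 to 2.74. In D. montana the controls were at -3.20, -3.52 and -0.84, and the acclimated pools were at -1.45, -0.10 and -0.34. The groups overlapped, because control replicate 3 was above acclimation replicate 1. The change was 1.89 ± 0.74 (95% interval 0.32 to 3.47) and did not pass (adjusted p = 0.071). Without acclimation replicate 1 it was 2.30 ± 0.81 (adjusted p = 0.0544), and without control replicate 3 it was 2.73 ± 0.70 and passed (adjusted p = 0.0103). The difference between species was -0.81 ± 0.95 (95% interval -2.77 to 1.15, adjusted p = 0.743), and -0.40 without acclimation replicate 1 (adjusted p = 0.93). An interval this wide holds no difference as well as differences of over 2 log2 units.

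Dat, which acetylates dopamine, fell in D. virilis. The controls were at -1.17, -1.40 and -1.56, and the acclimated pools were at -2.20, -2.75 and -2.59. All acclimated pools lay below all controls. The fall was -1.14 ± 0.14 (adjusted p = 1.58e-04). One of its 3 probes had levels of -5.83 to -5.22 in D. virilis controls and was not well above background on any of the 3 D. virilis acclimation arrays, so that its change of -1.68 has no measured lower end. The mean level of this probe was 1.8 in D. montana controls and -5.5 in D. virilis controls. The other 2 probes changed by -0.88 and -0.85. A setting added after seeing the data left out every probe whose controls differed by over 3 log2 units between species, this one among them. It gave -0.87 ± 0.10 (adjusted p = 1.09e-04). In D. montana the controls were at 1.29, 1.43 and 1.50, and the acclimated pools were at 0.82, 1.06 and 1.24. The acclimated pools lay below the controls, the nearest values being 1.24 and 1.29. The change was -0.37 ± 0.15 and did not pass (adjusted p = 0.0789). It passed with the slide as a block (adjusted p = 0.0438), and it was -0.26 ± 0.16 without acclimation replicate 1 (adjusted p = 0.282). The species responses differed by 0.77 ± 0.21 (adjusted p = 0.0174), and by 0.88 without acclimation replicate 1 (adjusted p = 0.0119). With the probes of a wide species gap left out, the difference was 0.52 ± 0.18 and did not pass (adjusted p = 0.0676). It also did not pass without D. virilis control replicate 1 (0.67, adjusted p = 0.0563) or D. virilis acclimation replicate 3 (0.73).

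**Figure D3:**
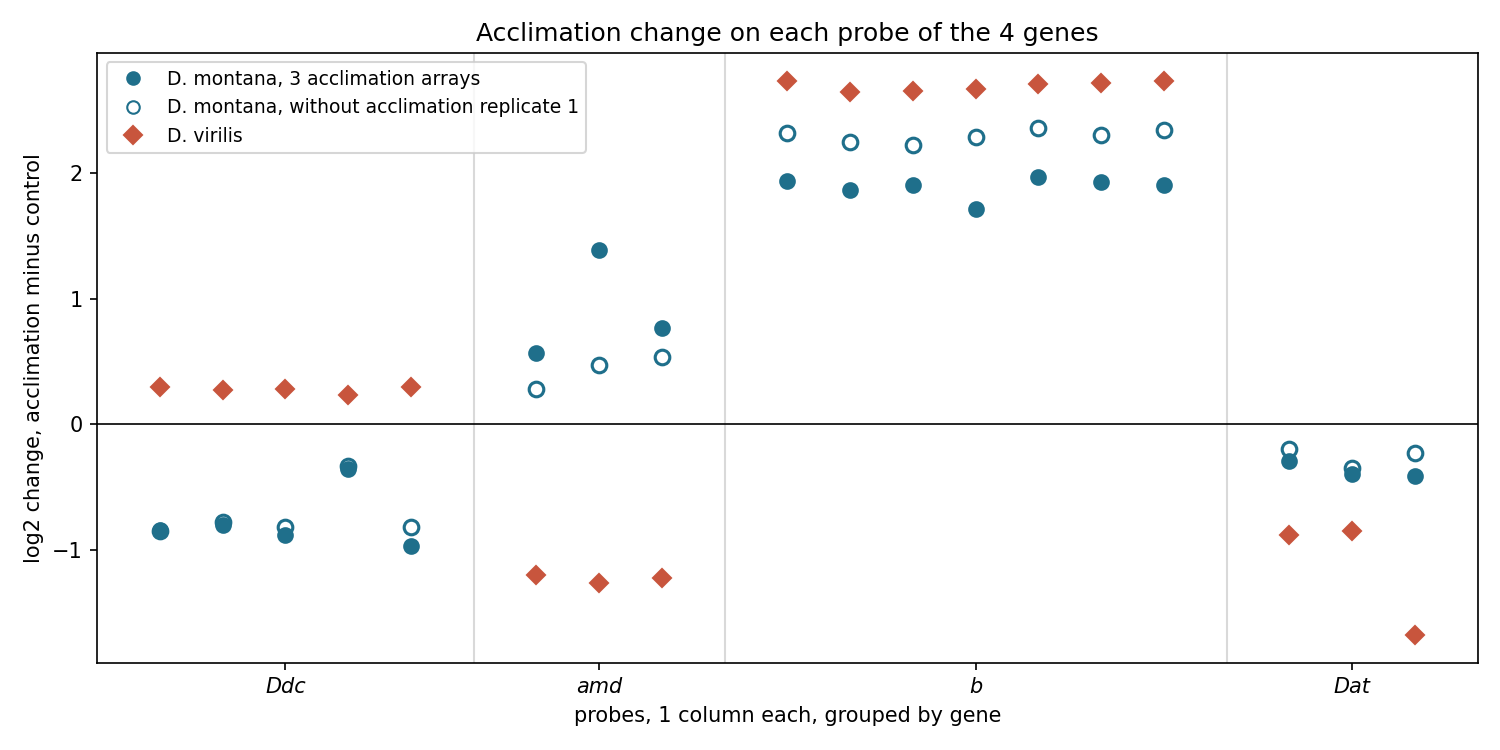
Change after cold acclimation on each of the 18 brighter probes (y axis: log2 acclimation minus control; 1 column per probe, grouped by gene). Filled circles are D. montana with 3 acclimation arrays, open circles D. montana without acclimation replicate 1, and diamonds D. virilis; the 7 probes of b lie at 2.65 to 2.74 in D. virilis, and 1 Dat probe in D. virilis lies at -1.68 beside -0.88 and -0.85.

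After 1 h at 0°C no enzyme gene passed in either species, where 0.469% of 213 genes in D. montana and 0.474% of 211 in D. virilis passed, 1 gene each. At an unadjusted p under 0.05 the counts were 14 and 22 genes. In D. virilis the hardened pools had b at -1.31, -0.94 and -0.59. They lay above all 3 controls and below all 3 acclimated pools. The change of 1.41 ± 0.30 (2.65-fold, 95% interval 0.75 to 2.06) had the second lowest p of 211 genes and an adjusted p of 0.0698. It passed with the slide as a block (adjusted p = 0.0273), which in D. virilis is the same fit as the replicate number as a block. It also passed without control replicate 1 (1.76, adjusted p = 0.00291) and with spike-in scaling (1.47, adjusted p = 4.23e-12). Under that scaling every enzyme gene had the same SE of 0.19, so this p-value does not measure the spread of b itself. Under the other settings it did not pass, with adjusted p from 0.0604 to 0.96. The slides gave 0.34, 1.75 and 2.12.

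In D. montana the hardened pools had b at -1.38, -1.57 and -1.27, which lie between the controls. The change was 1.11 ± 0.74 (adjusted p = 0.598), and it was 1.95 without control replicate 3 and 0.62 without control replicate 2. Hardened D. montana had Ddc at -0.01, 0.46 and 0.55, below all controls, with a change of -0.32 ± 0.16 (adjusted p = 0.598) that was -0.15 without hardening replicate 1. D. virilis had Ddc at 0.21, 0.07 and -0.06, above all controls, with a change of 0.27 ± 0.09 (adjusted p = 0.24). On 1 Ddc probe of the second fragment the D. virilis change was 0.02 and the groups overlapped. The other Ddc probes changed by 0.29 to 0.36. The difference between the species in hardening, where 0.478% of 209 genes passed, was -0.59 ± 0.20 for Ddc and did not pass (adjusted p = 0.16). For amd the changes were 0.32 ± 0.31 and -0.06 ± 0.23, and for Dat -0.18 ± 0.15 and 0.21 ± 0.14, with adjusted p between 0.591 and 0.932. The acclimation and hardening changes of a species share the same 3 control pools.

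**Figure D4:**
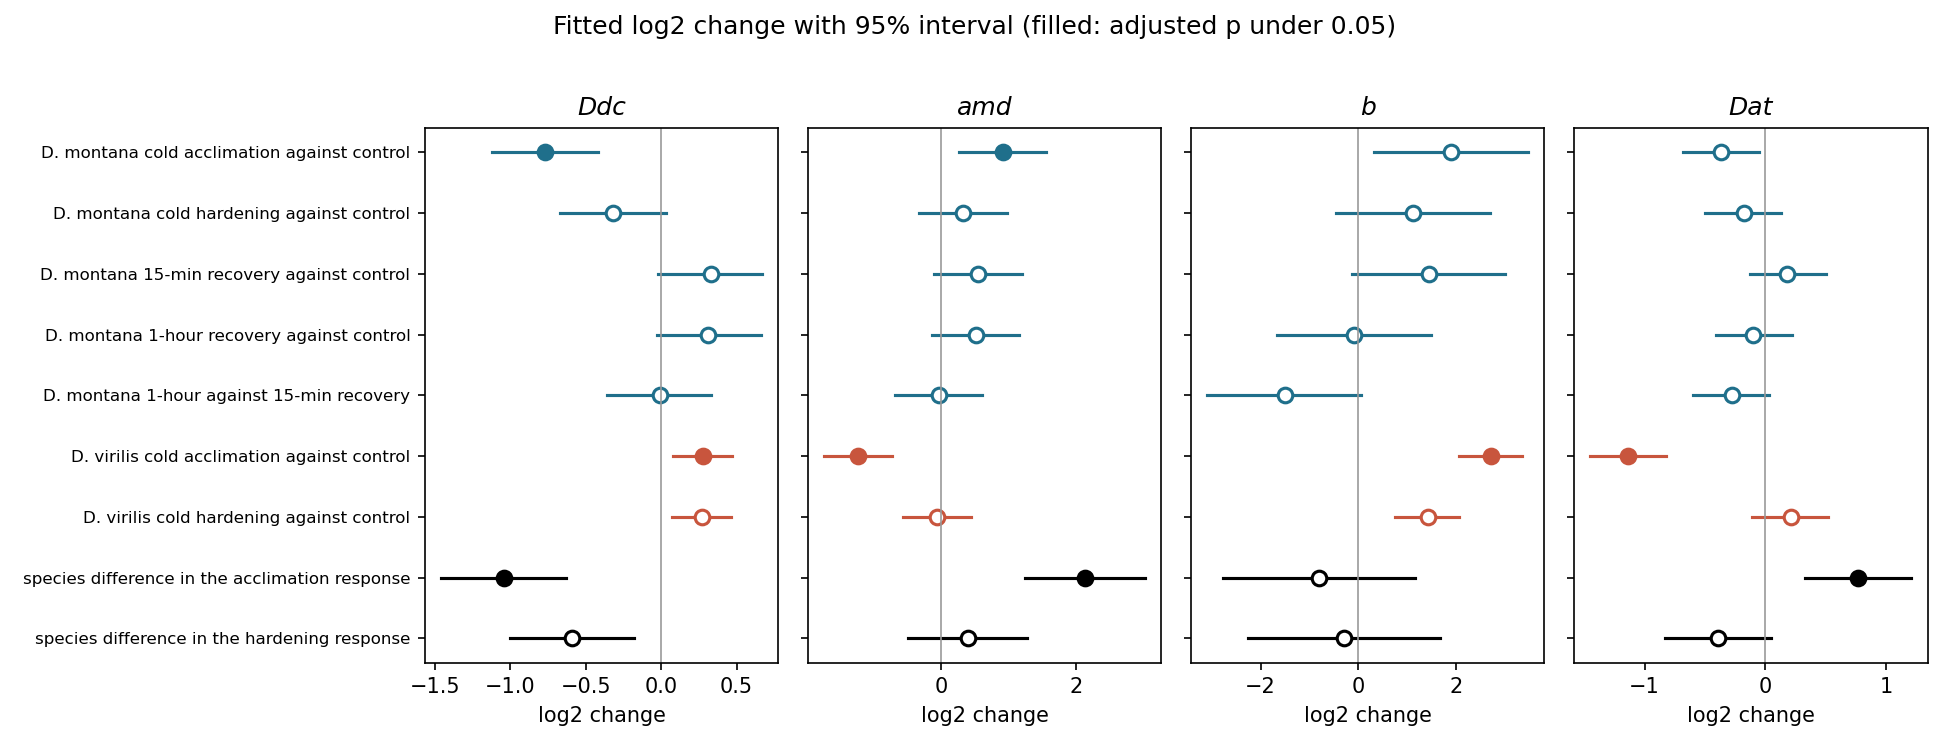
Fitted log2 change of each gene in the 9 comparisons, with its 95% interval as a line; filled points passed at an adjusted p under 0.05. Blue is D. montana, red D. virilis and black the D. montana change minus the D. virilis change; scales differ between panels, and filled points occur in the comparisons of acclimation and in no other.

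During recovery from chill coma in D. montana no enzyme gene passed, at 15 min (14 of 213 genes passed, 6.57%), at 1 h (6 genes, 2.82%) or between the recovery times (4 genes, 1.88%). Ddc was at 1.01, 1.22 and 0.71 after 15 min and at 1.08, 0.93 and 0.90 after 1 h. All 6 pools were at or above the highest control, which was at 0.71. The changes were 0.33 ± 0.16 (adjusted p = 0.212) and 0.31 ± 0.16 (adjusted p = 0.371). On 1 Ddc probe of the second fragment the change was 0.11 at both times and the pools overlapped the controls. The other Ddc probes changed by 0.35 to 0.42 at 15 min and by 0.33 to 0.42 at 1 h. For amd the pools were at -3.11, -2.90 and -3.23 after 15 min and at -3.49, -3.31 and -2.56 after 1 h. These too lay above the controls, by changes of 0.54 ± 0.31 (adjusted p = 0.252) and 0.51 ± 0.31 (adjusted p = 0.444). The change at 1 h was 0.23 without 1-h replicate 3. The SE of amd in hardening and recovery draws on all D. montana arrays, acclimation replicate 1 among them. In acclimation this SE was 0.31 with that array and 0.22 without it. The hardening and recovery changes were not fitted without it. Dat was at 1.57, 1.86 and 1.35 and then at 1.21, 1.45 and 1.27, overlapping the controls at both times, with changes of 0.18 ± 0.15 and -0.10 ± 0.15. From 15 min to 1 h of recovery the level of b differed by -1.51 ± 0.74 (adjusted p = 0.648), by -0.73 without 15-min replicate 1 and by -2.46 without 15-min replicate 3. The recovery comparisons use the same 3 controls as acclimation and hardening.

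Across the 5 D. montana groups the mean level of Ddc was lowest after acclimation (-0.11 ± 0.21 SD), then after hardening (0.33 ± 0.30) and in controls (0.65 ± 0.05), and highest at 1 h (0.97 ± 0.10) and 15 min (0.98 ± 0.25) of recovery. The ranges of acclimated and hardened pools overlapped, as did those of the recovery times, while the other neighbours in this order did not overlap. For Dat the order from the lowest was acclimation (1.04 ± 0.21), hardening (1.23 ± 0.14), 1 h of recovery (1.31 ± 0.12), controls (1.41 ± 0.11) and 15 min of recovery (1.59 ± 0.26), and all neighbours overlapped. The order of amd was controls (-3.62 ± 0.05), hardening (-3.30 ± 0.19), 1 h (-3.12 ± 0.49) and 15 min (-3.08 ± 0.17) of recovery, and acclimation (-2.71 ± 0.84), where the controls alone did not overlap their neighbour. Without acclimation replicate 1 the acclimation mean of amd was -3.20 (n = 2), between hardening and 1 h of recovery, while those of Ddc (-0.07), Dat (1.15) and b (-0.22) kept their places in the order. The order of b was 1 h of recovery (-2.61 ± 0.87), controls (-2.52 ± 1.46), hardening (-1.40 ± 0.15), 15 min of recovery (-1.09 ± 1.75) and acclimation (-0.63 ± 0.72), with overlap at every step. In D. virilis the order of Dat was acclimation (-2.52 ± 0.29), controls (-1.38 ± 0.19) and hardening (-1.17 ± 0.09), and that of amd was acclimation (-1.89 ± 0.39), hardening (-0.72 ± 0.46) and controls (-0.66 ± 0.12). In both the controls and the hardened pools overlapped and the acclimated pools lay apart. The acclimation mean of Dat includes the probe that was not well above background on those arrays. On the other Dat probes the acclimated pools also lay apart. The groups of b, from controls (-2.35 ± 0.61) through hardening (-0.95 ± 0.36) to acclimation (0.35 ± 0.40), did not overlap at either step.

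The level of b varied more between replicate pools than that of any other gene measured in D. montana. Its SD pooled over the 5 groups was 1.14 log2 units, rank 1 of 213 genes, against a median of 0.20. After 15 min of recovery the pools were at 0.47, -0.75 and -2.99, and after 1 h at -3.22, -2.98 and -1.61. The range was 2.67 units among controls, where the next gene, Fst, had 0.90. It was 3.46 units at 15 min, an 11-fold span between pools treated alike, where the next gene, Acon, had 1.40. At 1 h it was 1.61 units, with Hsf next at 1.37. The hardened pools of D. montana spanned 0.30 units, rank 112. The changes of 1.43 ± 0.74 at 15 min and -0.09 ± 0.74 at 1 h therefore have wide intervals, -0.14 to 3.00 and -1.66 to 1.49. In D. virilis the pooled SD of b was 0.47, rank 3 of 211. The 7 probes moved as 1: the lowest correlation between any pair of them was 0.988 over the 15 D. montana arrays and 0.998 over the 9 D. virilis arrays. The 8 spots of a probe had a median SD of 0.05 units on an array. Of the other members, amd had a pooled SD of 0.45 in D. montana, rank 6 of 213, and of 0.35 in D. virilis, rank 5 of 211. The D. montana value includes acclimation replicate 1, the array that stood apart. Ddc had 0.21 in D. montana, rank 99 of 213, and 0.10 in D. virilis, rank 155 of 211.

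**Figure D5:**
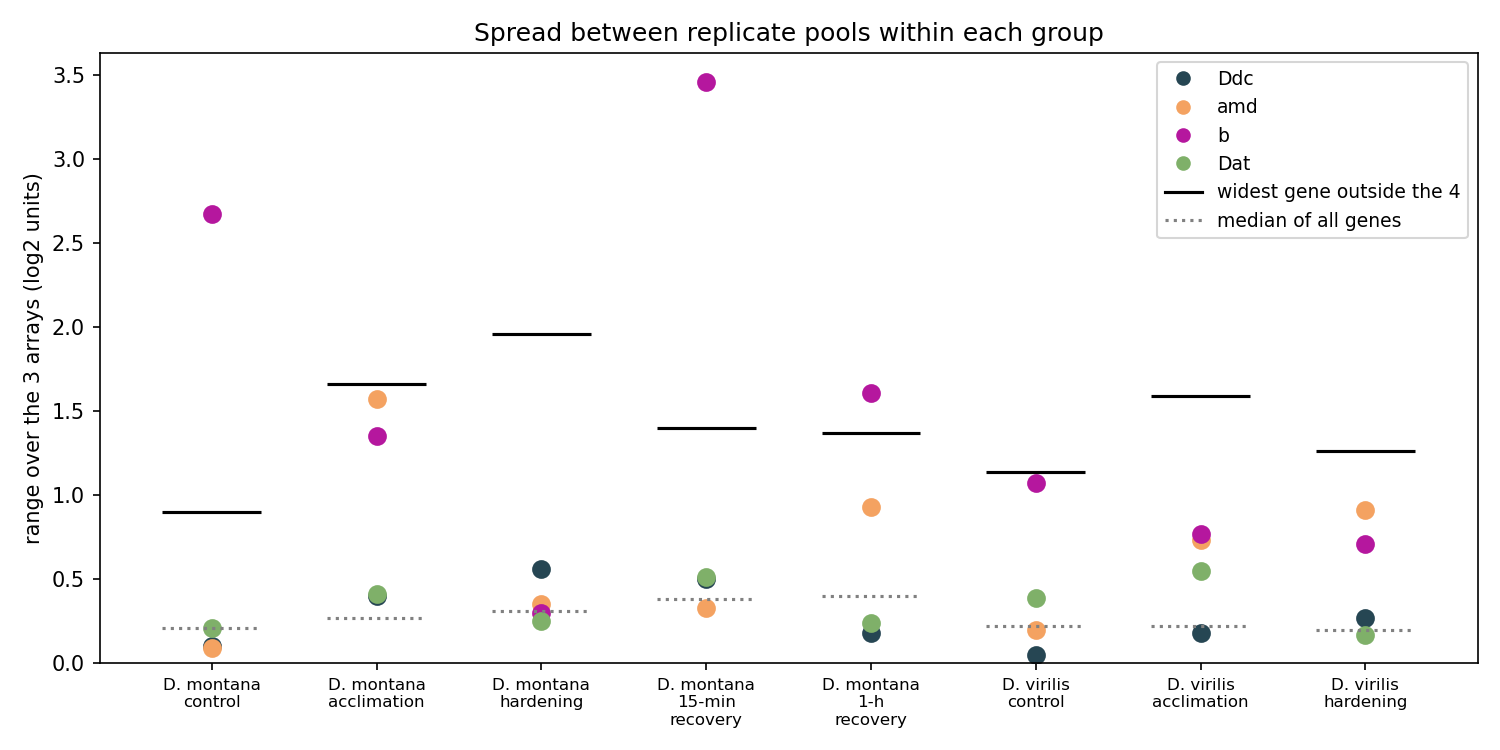
Range of each gene over the 3 arrays of a group (y axis: log2 units, from 0), with the widest gene outside the 4 as a black bar and the median of all genes as a dotted bar. The points of b reach 2.67 in D. montana controls, 3.46 at 15 min and 1.61 at 1 h of recovery, each above the black bar.

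Of 28 further genes of amine synthesis, transport, reception and cuticle tanning that were listed, 8 are on the array: ple (tyrosine hydroxylase, the step before Ddc), e (ebony, which joins beta-alanine to dopamine), y (yellow, pigmentation), Gad1 (GABA synthesis), SerT (serotonin transporter), Trh (serotonin synthesis), 5-HT7 (a serotonin receptor) and knk (knickkopf, chitin organisation in cuticle). In D. montana acclimation 2 of the 8 rose and 1 fell, where 26.8% of all genes passed. The risers were 5-HT7 (0.64 ± 0.16, adjusted p = 0.00607) and knk (0.85 ± 0.25, adjusted p = 0.0225), and Gad1 fell (-0.61 ± 0.21, adjusted p = 0.0427). Without acclimation replicate 1, 5-HT7 and knk still passed (0.77 and 0.96), while Gad1 did not (-0.47, adjusted p = 0.159). In D. virilis acclimation 3 of the 8 rose and none fell, a share near the 39.3% of all genes that passed. They were 5-HT7 (0.56 ± 0.10, adjusted p = 0.00119), SerT (0.49 ± 0.08, adjusted p = 0.00115) and knk (0.47 ± 0.13, adjusted p = 0.0146). The neighbours of the 4 enzymes in the pathway, ple and e, had changes of -0.20 ± 0.18 and 0.10 ± 0.21 in D. montana and of 0.18 ± 0.09 and 0.04 ± 0.09 in D. virilis, none of which passed. No gene of the 8 passed in hardening, in recovery or in the differences between species. The median change of the list was 0.10 in D. montana and 0.27 in D. virilis acclimation, beside 0.00 and -0.06 over all genes. The levels of ple, SerT, 5-HT7 and knk lay between -5.69 and -4.24 in controls and acclimated pools, far below the 75th percentile, so their changes rest on dim probes.

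Some markers of tissues moved with acclimation, and their part in the enzyme results was not tested. Log2 values of the summed linear levels of the muscle genes on the array, Mhc and sls (2 of 6 listed), ran from 6.34 to 6.67 in acclimated D. virilis against 5.77 to 6.11 in controls. In D. montana they ran from 6.80 to 7.17 against 6.70 to 6.84, and from 7.12 to 7.17 without acclimation replicate 1. The neuronal channel genes para and cac (2 of 6 listed) ran from -3.83 to -3.17 in acclimated D. montana (-3.44 to -3.17 without acclimation replicate 1) against -2.96 to -2.68 in controls. In D. virilis only 1 of them was measured, with -5.79 to -5.69 against -5.30 to -4.60. The 9 photoreceptor markers, all measured, ran from 7.03 to 7.25 in acclimated D. virilis against 6.73 to 7.0 in controls, and from 6.56 to 6.79 against 6.45 to 6.94 in D. montana (6.56 to 6.68 without acclimation replicate 1). None of the 6 markers of female fat body and ovary is among the array's gene names, so the labelled sex was not checked this way.

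The genes whose pattern was most like that of a member were found by Pearson's r over the 24 arrays, after each species' mean was subtracted, among 208 other genes measured in both species. All arrays share the same treatments and scaling, so r is a description. For Ddc they were Tpi (0.87), p38a (0.85) and Pgm (0.84), with r of 0.88 to 0.92 in D. montana and -0.12 to 0.40 in D. virilis. For Dat they were Cyt-b5-r (0.88), ort (0.83) and Act42A (0.83), with 0.77 or more in each species over all arrays. For b they were Hsp20 (0.84), Mhc (0.75) and Acon (0.72). For amd they were Hsp60 (0.70), qtc (0.68) and CG9747 (0.63), and Hsp60 also has probes among those brighter in D. virilis. Without D. montana acclimation replicate 1 the genes of Ddc, b and Dat were the same 3 each, while those of amd were qtc (0.79), Dat (0.72) and nompA (0.66), with Hsp60 at 0.58. Among the members themselves r ran from -0.32 (b and Dat) to 0.44 (amd and Dat), the latter being 0.72 without that array. The pair of amd and Dat had r of 0.89 over the 9 D. virilis arrays and -0.43 over the 15 D. montana arrays, which became 0.04 over 14 without acclimation replicate 1.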

How the data were processed

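Whole-body RNA of 24 pools was labelled with Cy3 and hybridised to 1-colour arrays, 1 per pool, from 600 ng of total RNA each (per the labels). The deposited intensity of a spot is the processed signal of Agilent Feature Extraction, which per the file headers had its background removed and a spatial trend taken out but was not scaled from array to array. A second deposited file holds the authors' own processed intensities, linear and in 1850 rows, whose column medians are 69.4 to 72.7 with a normalization that no source used here gives. Its rows carry no probe names and were taken as probes in name order (lowest correlation with the own array 0.996, against -0.0098 in file order). The submitters' processing notes name limma.

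Each array held 1850 non-control probes of 8 spots, and 87 to 261 outlier-flagged spots per array were left out. Log2 processed signals were averaged over spots, the 75th percentile of the array's non-control probes was subtracted, the brighter probe of each pair over all arrays was kept where it was well above background on all 3 arrays of a group, and probes of a gene were averaged. Genes tested numbered 213 (D. montana), 211 (D. virilis) and 209 (both). R 4.3.3 with limma 3.58.1 (lmFit, eBayes) was used on 15, 9 or 24 arrays, with Benjamini-Hochberg adjustment over all genes and a threshold of 0.05, and the procedure was tested on simulated data. Each replicate is its own pool of flies according to the labels. The number of arrays limits the precision. The 3 slides each carry 1 array of every group.

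Named genes were the 4 members, the genes of the pathway list that passed, ple and e, and the 3 genes most like each member. The members and lists were chosen with earlier results of these data known. Alternatives were normexp with an offset of 50 on the median signal (the mean signal is not among the columns used here), quantile normalization, spike-in scaling, no filter on dim probes, both orientations averaged, the median over probes, the authors' table, slide or replicate number as a block, each array left out, and, added after seeing the data, leaving out probes whose controls differ by over 3 log2 units between species, and levels, markers and correlations without D. montana acclimation replicate 1. Fst, Acon and Hsf, given for their ranges, and the probes shown singly were chosen after their values were seen. Probe and protein sequences were not used here.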

Additional observations from a re-analysis of the deposited data

Results flagged for a closer look

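The acclimation response differed between the species, by a test of the difference itself, in 3 of the 4 genes, where 12.4% of all 209 genes did. For amd the D. montana change minus the D. virilis change was 2.14 ± 0.43 (SE, limma adjusted p = 0.0016), for Dat 0.77 ± 0.21 (adjusted p = 0.0174) and for Ddc -1.04 ± 0.20 (adjusted p = 0.00104). Without D. montana acclimation replicate 1, the array that lies part of the way towards D. virilis, the values were 1.66, 0.88 and -1.0, and all 3 passed. None of the 3 passed with normexp background correction (adjusted p = 0.237, 0.864 and 0.154). The value of Dat includes a probe that was not well above background on any D. virilis acclimation array. With this and all other probes of a species gap over 3 log2 units left out, the Dat difference was 0.52 and did not pass (adjusted p = 0.0676). A signal in data outside the main measurement appeared in b: its 4 dimmer, opposite-orientation probes that were well above background on every array were 1.23 log2 units higher in acclimated D. virilis (-4.27, -4.55 and -4.29) than in controls (-5.36, -5.77 and -5.65), with no overlap. The brighter probes of b changed by 2.70 in the same comparison. Changes of dimmer probes were singled out only above 1 log2 unit. Smaller ones without overlap in acclimated D. virilis were 0.41 for the 2 such probes of Dat, opposite in sign to its brighter probes, and -0.55 for the 1 of amd. The 1 of Ddc overlapped its controls (-0.12). How many dimmer probes of other genes separate in this way is not given here, so these changes are not shown to be particular to the enzyme genes. Whether the dimmer probes report RNA of the opposite strand was not tested.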

How the results depend on the processing

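Of the enzyme results that passed, the fall of Ddc in D. montana, the falls of amd and Dat and the rise of b in D. virilis, and the species differences of Ddc and amd passed in every fit that left out 1 array, and the others did not. With normexp background correction, calls fell to 11, 0, 1, 2 and 1 in the D. montana comparisons (acclimation, hardening, 15 min, 1 h, 1 h against 15 min), to 16 and 0 in D. virilis, and to 0 in both species differences. There Ddc and amd in D. montana acclimation were -0.70 (adjusted p = 0.0527) and 0.59 (0.993), Ddc and Dat in D. virilis 0.21 (0.376) and -0.79 (0.122), and the species differences of Ddc, amd and Dat -0.91 (0.154), 1.70 (0.237) and 0.43 (0.864). Spike-in scaling, under which the median change of all genes lay between -0.20 and 0.09, gave 27 calls in D. montana acclimation and 5 at 15 min. It gave 36 and 4 calls in D. virilis, and 4 and 2 species differences. D. virilis Ddc was at 0.29 (0.312) there, and the species differences were -0.99 for Ddc (0.0537) and 0.82 for Dat (0.164). Within D. virilis every enzyme gene had the same SE under this scaling (0.19), so the D. virilis p-values do not measure a gene's own spread. Both orientations averaged gave D. montana Ddc -0.48 (0.0534) and amd 0.79 (0.0557), a Dat difference of 0.25 (0.514), 17 species differences in acclimation and 0 calls in D. virilis hardening and its species difference. amd in D. montana was 0.84 (0.0552) with quantile normalization and 0.79 (0.0665) with the median over probes. The Dat difference was 0.46 (0.176) with the median over probes, 0.45 (0.278) in the authors' deposited table and 0.52 (0.0676) without probes of a wide species gap. The authors' table gave 2 calls in D. virilis hardening and 2 in the hardening difference, as quantile normalization did for the latter. D. montana Dat in acclimation passed with quantile normalization (-0.38, adjusted p = 0.0332) and in the authors' table (-0.39, 0.0373), and b with spike-in scaling (1.96, 0.0133).

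No comparison had every same-number correlation over 0.1, and the main fits used no block. With 3 pools per group such correlations cannot show that the samples were unpaired. D. montana control replicates 2 and 3 lie on slides 3 and 2, so slide and replicate number differ in that species. Without a block, calls were 14 at 15 min, 6 at 1 h and 1 in D. virilis hardening. With the replicate block they rose to 27, 14 and 4, and with the slide as a block to 30, 14 and 4. D. montana Dat in acclimation passed with either (-0.37, adjusted p = 0.0493 and 0.0438). In D. virilis slide and replicate number coincide on every array, so the blocks are the same fit. There b passed in hardening (1.41, adjusted p = 0.0273). Neither block ended a call of an enzyme gene.

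Leaving out 1 array in turn, the counts ranged from 34 to 45 in D. montana acclimation (57 with all), 0 to 2 in hardening, 1 to 30 at 15 min, 6 to 7 at 1 h, 4 to 5 between recovery times, 58 to 95 and 0 to 7 in D. virilis, and 15 to 29 and 0 to 3 for the species differences. Changes ranged from -0.89 to -0.69 for Ddc and 0.43 to 1.21 for amd in D. montana acclimation, 0.23 to 0.32 for Ddc, -1.45 to -1.09 for amd, 2.52 to 3.05 for b and -1.29 to -1.02 for Dat in D. virilis, and for the species difference -1.17 to -0.97, 1.66 to 2.44 and 0.65 to 0.93 for Ddc, amd and Dat. Reversed signs occurred among changes that did not pass: b at 1 h (-0.09) became 0.75 with normexp or without control replicate 3, 0.10 with both orientations or without 1-h replicate 2, and 0.22 without 1-h replicate 1 (range without 1 array -0.58 to 0.75). Between recovery times Ddc (-0.01) became 0.06 with both orientations and lay at -0.15 to 0.10 without 1 array (0.00, 0.01 and 0.02 among them), and amd (-0.04) became 0.28 with normexp, 0.03 with both orientations and 0.05, 0.06 or 0.14 without 1 array (range -0.32 to 0.14). In D. virilis hardening amd (-0.06) became 0.00 with spike-in scaling, 0.02 with both orientations and 0.00 or 0.18 without 1 array (range -0.28 to 0.18). Dat at 15 min became -0.02 with normexp, and without control replicate 3 the species differences of b became 0.03 in acclimation (range -1.31 to 0.03) and 0.55 in hardening (range -0.79 to 0.55). The cause of these changes was not tested.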
